A study of Sus scrofa with 85 samples.

Results

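In swine with an induced myocardial infarction, 18 of 31907 annotated genes met a rule for genes that were higher in whole blood 2 days after the infarction than at 14 days. The level of a gene was the mean over the libraries of a group of log2(CPM + 1), where CPM is counts per 1000000 counts of the library. The rule took genes whose level in blood was at least 1 higher on Day 2 than on Day 14, with a blood Day 2 level of at least 4 that was at least 3 above the level in heart biopsies before the infarction. It allowed up to 100 genes, but of the 600 genes that met both criteria on the level only 18 reached the difference. The median Day 2 minus Day 14 difference of those 600 genes was 0.0098 on the log2 scale, 310 of them were above 0, and 2 were at -1 or below. The genes were thus chosen by their values in the blood Day 2, blood Day 14 and baseline heart libraries, and these values are given as a description without a test.

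The counts came from 85 RNA-seq libraries of 3 female mixed-breed Yorkshire-Swedish pigs (swine 1640, 1644 and 5385), 62 from micro-EMB, a catheter biopsy of the left heart ventricle, and 23 from whole blood. Every animal had the distal left anterior descending artery closed with a balloon for an hour and then reopened, under anesthesia, so there was no untreated animal. All groups come from these animals, but not every group holds usable libraries of each of them. Heart groups were baseline before occlusion and, for the apical (infarcted) and the lateral (non-infarcted) region, 0-1 h, 1-3 h, Day 2 and Day 14; blood groups were baseline, 1-3 h, Day 2 and Day 14. Since a few animals gave every library of a group, p-values measure the spread between libraries.

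A library was used if its total count was at least 1000000 and its 10 most counted genes held 7 to 60% of the counts, which 57 libraries met, 12 of blood and 45 of heart. Their totals ranged from 3499443 to 16659110. Of the others, 25 had an even profile with a smaller share in the 10 top genes, 2 were dominated by 10 genes, and 1 had a total of 11505. In the 12 blood libraries HBB, a globin chain of red cells, had 3357 to 13813 CPM, CSF3R, a receptor of neutrophils, 210.1 to 595 CPM, and TNNT2, a cardiac troponin, 2.71 to 8.85 CPM. Among the genes of 14 lists for blood and heart cells and responses, 27 had a count of 0 in all 12, including ALAS2 of red cell precursors, CD79A of B cells and LYZ of monocytes. In 6 of the 45 usable heart libraries, 1 of baseline among them, the summed CPM of the cardiomyocyte list was 89.3 to 1849, and in the other heart libraries at least 14020. These 6, rich in collagen transcripts, go against the label of heart muscle. The paper excluded outlier biopsies with raised collagen genes, which it took to be fibrous. Here the 6 were kept in the main fit, and the libraries used differ from the paper's selection.

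RNA in whole blood comes mainly from leukocytes and from young red cells that still carry globin transcripts. After an infarction the blood is known for a rise of neutrophils and monocytes and of inflammatory transcripts. None of the 18 genes was found in the 14 lists. These include genes of neutrophils, monocytes, platelets, lymphocytes, inflammation and interferon response. The lists were matched by symbol, so the 9 genes without a symbol could not be found in them. With only 241 list entries found among the 31907 genes, no conclusion is drawn from this absence. The 9 genes with a symbol are GRIN2B (a subunit of the NMDA glutamate receptor), GSG1L (an auxiliary subunit of AMPA glutamate receptors), SORCS3 (a sortilin-family receptor of neurons), CACNA1I (the pore of a T-type calcium channel), PTPRN2 (a phosphatase-like protein of secretory vesicles), KSR2 (a scaffold of the Ras-MAPK cascade), FSTL4 (a follistatin-like protein), TCERG1L (a relative of a transcription elongation regulator) and AGBL1 (a carboxypeptidase that removes glutamate from tubulin). The other 9 genes have an Ensembl identifier and no symbol.

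All 9 genes with a symbol had an entry in RefSeq on Sscrofa11.1, the build of the counts, and all are protein-coding. They lie on 6 chromosomes: TCERG1L on chromosome 14 from 139774084 to 139957273, SORCS3 on 14 from 115587176 to 116202433, KSR2 on 14 from 34675349 to 35090007, CACNA1I on 5 from 8593014 to 8702734, GRIN2B on 5 from 58477862 to 58948735, AGBL1 on 1 from 192725367 to 193534530, PTPRN2 on 18 from 721125 to 1389609, FSTL4 on 2 from 135486885 to 136096939 and GSG1L on 3 from 18904237 to 19142552. Their annotated spans ran from 109721 bases for CACNA1I to 809164 for AGBL1. Over 19556 protein-coding genes on placed chromosomes the median span was 20660 bases, and 13.3% of them were as long as CACNA1I or longer. Only 50% of the 18 genes had an entry, so a check of length or sequence over the list is void and these values stand for the 9 genes alone.

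The 250 bases before the RefSeq start are shown for the symbols with the largest Day 2 minus Day 14 difference, TCERG1L (chr14:139957274-139957523, minus strand) and SORCS3 (chr14:115586926-115587175, plus strand), and for AGBL1 (chr1:193534531-193534780, minus strand), the one gene with a motif match. Capitals mark matches to the motifs searched on both strands from 250 bases before to 50 after the start.
TCERG1L: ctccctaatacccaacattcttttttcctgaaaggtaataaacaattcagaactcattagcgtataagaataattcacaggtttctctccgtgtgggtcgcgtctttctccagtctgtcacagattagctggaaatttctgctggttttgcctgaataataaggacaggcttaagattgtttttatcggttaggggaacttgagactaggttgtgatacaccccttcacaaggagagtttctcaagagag
SORCS3: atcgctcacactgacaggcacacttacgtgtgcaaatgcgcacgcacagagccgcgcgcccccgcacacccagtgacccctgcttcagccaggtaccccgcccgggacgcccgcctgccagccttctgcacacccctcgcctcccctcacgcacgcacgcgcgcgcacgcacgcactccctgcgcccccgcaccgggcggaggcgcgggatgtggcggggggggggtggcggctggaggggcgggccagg
AGBL1: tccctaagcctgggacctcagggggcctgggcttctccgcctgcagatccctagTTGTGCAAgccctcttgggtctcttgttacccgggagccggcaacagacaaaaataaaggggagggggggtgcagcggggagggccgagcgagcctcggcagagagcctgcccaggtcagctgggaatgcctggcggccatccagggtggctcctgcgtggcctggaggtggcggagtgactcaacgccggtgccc
In AGBL1 the match was to the C/EBP motif (TTGCNNAA) and began at position -196 from the start. This motif was in 1 of the 9 windows and in 9.46% of all 19556. The ISRE motif of interferon response (3.57% of all windows), the NF-kB motif (2.83%), the STAT motif (TTCNNNGAA, 7.12%), the PU.1 motif (GAGGAAG, 12.2%) and the GATA motif (AGATAA, 9.17%) were in 0 of the 9.

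In blood the Day 2 level exceeded the Day 14 level by 1.01 to 1.37 on the log2 scale over the 18 genes, with a median of 1.12. The Day 2 levels ran from 4.18 to 7.54 and the Day 14 levels from 3.11 to 6.39. At the edge of the rule, the least difference was 1.01 for GSG1L, 1.03 for KSR2 and 1.03 for a gene without a symbol. The nearest genes outside it were RBFOX3 with 0.99, IGSF21 with 0.99 and NRXN3 with 0.96. In whole blood, a change in the number of cells that carry a transcript and a change of the RNA per cell cannot be told apart.

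The values in single libraries did not separate the timepoints. TCERG1L had 4.97 log2(CPM + 1) in the Day 2 library of swine 1640, 4.47 in that of swine 1644, and 5.83 and 2.67 in libraries 1 and 6 of swine 5385. Its Day 14 values were 3.32 and 4.61 in swine 1640, 2.66 in swine 1644, and 3.70 and 1.27 in libraries 1 and 2 of swine 5385. The range of each timepoint thus held values of the other, and both extremes came from swine 5385. ENSSSCG00000049113 had 4.72 in swine 1640, 4.96 in swine 1644 and 6.74 and 4.19 in swine 5385 on Day 2, against 4.22 and 5.95, 3.89, and 3.61 and 1.45 on Day 14. SORCS3 had 5.66, 6.07, and 7.63 and 4.76 on Day 2 in the same order of animals, against 5.03 and 6.79, 4.77, and 5.16 and 2.66 on Day 14. In both genes library 5 of swine 1640 on Day 14 was above 3 of the 4 Day 2 libraries.

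ENSSSCG00000043890, which has no symbol, had 6.87 in swine 1640, 7.11 in swine 1644 and 9.55 and 6.62 in swine 5385 on Day 2. On Day 14 it had 6.55 and 7.93 in swine 1640, 6.19 in swine 1644 and 6.67 and 4.61 in swine 5385. The calcium channel gene CACNA1I followed the same order of extremes, with 3.76, 4.62, and 5.80 and 3.34 on Day 2 and 2.79 and 4.72, 2.86, and 3.73 and 2.20 on Day 14. PTPRN2 had the narrowest spread on Day 14 (SD 0.62, n = 5), with 5.13 and 6.28 in swine 1640, 5.09 in swine 1644 and 5.62 and 4.64 in swine 5385. Its Day 2 values were 6.27, 6.26, and 7.83 and 5.39.

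The genes of glutamate receptors showed the same overlap in blood. GRIN2B had 5.78 in swine 1640, 5.68 in swine 1644 and 7.40 and 4.78 in swine 5385 on Day 2, against 5.04 and 6.43, 4.46, and 4.97 and 3.42 on Day 14. GSG1L had 4.93, 4.78, and 6.62 and 3.99 on Day 2, against 4.21 and 5.66, 4.12, and 3.87 and 2.51 on Day 14. For each, the only Day 2 library above all Day 14 libraries was library 1 of swine 5385. The remaining symbols showed it too: AGBL1 reached 7.35 there against 4.72 in the other Day 2 library of the animal, FSTL4 7.85 against 5.01 and KSR2 7.34 against 4.57.

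Over the 18 genes, 0 had all 4 Day 2 libraries above all 5 Day 14 libraries. Of the 18956 genes tested in blood, 0.934% did. In 17 genes only 1 Day 2 library was above every Day 14 library and in the other gene 2 were. Library 1 of swine 5385 on Day 2 was the highest of the 12 blood libraries in 18 of 18 genes, and library 2 of the same animal on Day 14 was the lowest in 18 of 18. The 2 Day 2 libraries of swine 5385 differed from each other by 2.40 to 3.16 (median 2.63), more than the difference between the timepoints.

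**Figure D1:**
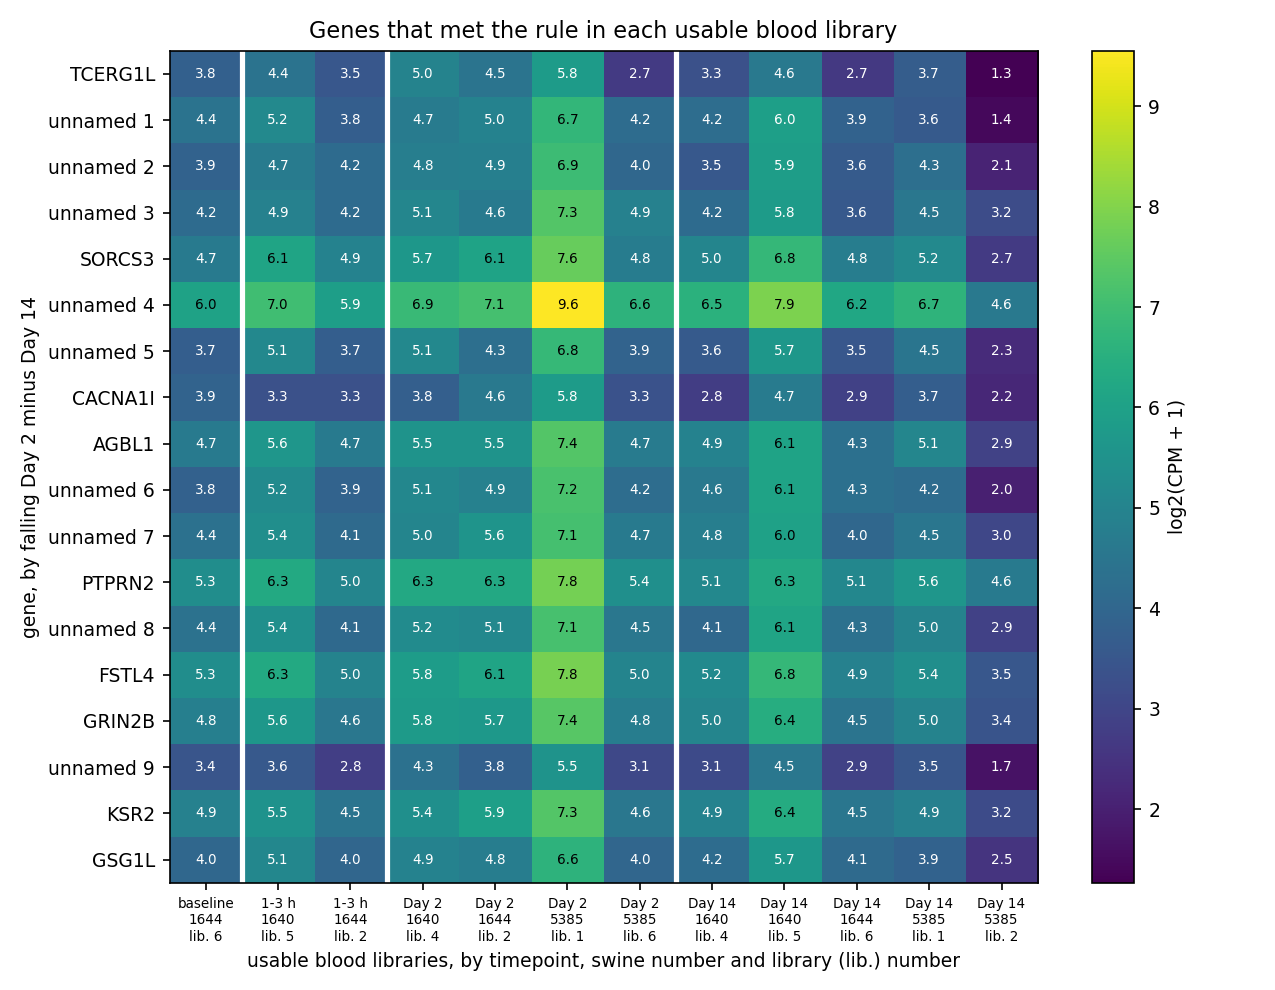
Each cell gives log2(CPM + 1) of 1 of the 18 genes (rows, by falling difference between Day 2 and Day 14, with genes that have no symbol numbered in that order) in 1 of the 12 usable blood libraries (columns, by timepoint, swine number and library number). Library 1 of swine 5385 on Day 2 is the highest and library 2 of swine 5385 on Day 14 the lowest in every row, and the Day 2 and Day 14 columns overlap.

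By animal, all 18 genes were higher in mean on Day 2 in 2 of the 3 swine, and 10 of them in swine 1640. In swine 5385 the Day 2 minus Day 14 difference was 1.48 to 2.94 (median 2.02) and above 0 for 18 genes. In swine 1644, with 1 library at each time, it was 0.57 to 1.81 (median 1.19) and also above 0 for 18. In swine 1640 it was -0.38 to 1.01 (median 0.0073), with 10 of the 18 genes above 0. The mean level of the 18 genes in swine 1640 was 5.25 on Day 2 and 4.41 and 5.98 on Day 14 (mean 5.20). The Day 2 value thus lay between the Day 14 values of the same animal and was slightly above their mean. In swine 5385 it was 7.11 and 4.41 on Day 2 and 4.62 and 2.75 on Day 14, so the libraries overlapped there too. TCERG1L had a difference of at least 1 in each of the 3 animals (1.01, 1.81 and 1.76 in swine 1640, 1644 and 5385).

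Membership rested on both extreme libraries. Without library 1 of swine 5385 on Day 2, 1 gene met the rule and 0 of the 18 did, and without library 2 of swine 5385 on Day 14, 0 genes met it. The median difference of the 18 genes was 0.59 without the first, 0.70 without the second and 0.17 (from -0.06 to 0.47) without both. Leaving out library 6 of swine 5385 on Day 2 instead filled the list to the rule's limit of 100 genes, all 18 among them. Without library 2 (swine 1644) or library 4 (swine 1640) on Day 2, 36 and 39 genes met the rule, and without library 5 of swine 1640 on Day 14, 41 did. With library totals scaled by TMM, which raised the blood totals against those of the heart, 0 genes met the rule. The Day 2 minus Day 14 difference of the 18 genes was then 0.83 to 1.20 and their excess over baseline heart 2.46 to 3.36, at least 3 in 2 of them.

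**Figure D2:**
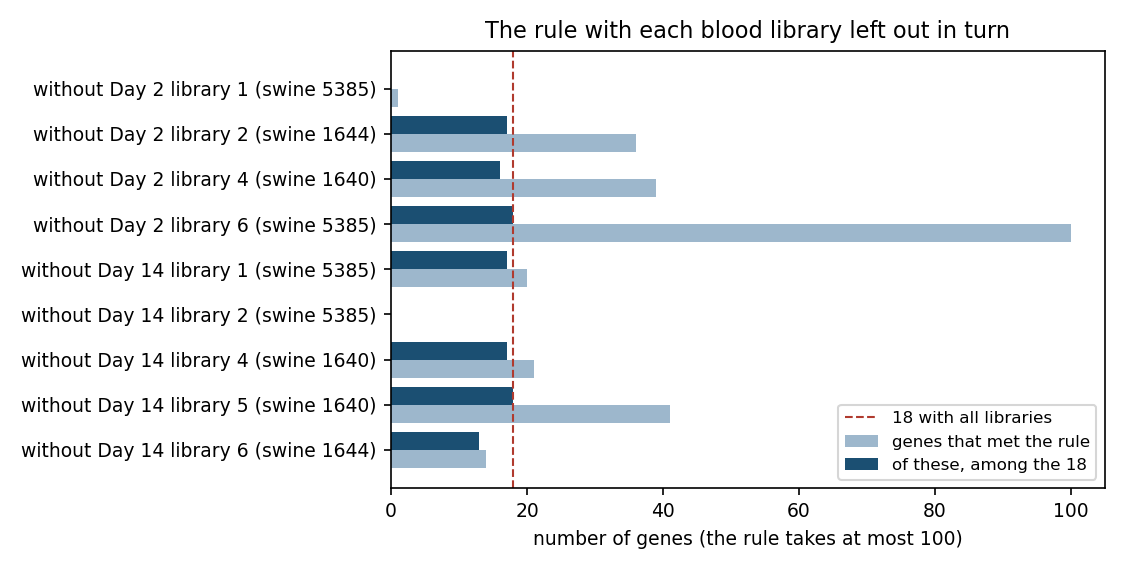
Bars give the number of genes that met the rule when the named blood library was left out (light) and how many of these were among the 18 genes (dark), and the dashed line marks the 18 genes found with all libraries. The number ran from 0 to 100, the most that the rule takes, and both lists without any of the 18 lacked a library of swine 5385.

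The level of the 18 genes moved with the number of genes detected in a library, that is, with a CPM of at least 1. Library 1 of swine 5385 on Day 2 had 20646 genes detected, the most of the 12 blood libraries, and a mean level of the 18 genes of 7.11. Library 2 of swine 5385 on Day 14 had 14223, the fewest, and a mean level of 2.75. The 6 blood libraries with the most genes detected, of Day 2, Day 14 and 1-3 h and of all 3 animals, had the 6 highest mean levels in the same order: 7.11, 5.98, 5.27, 5.26, 5.25 and 4.62. The order did not hold below them: libraries ranked 7 to 10 by genes detected had level ranks 9, 10, 8 and 7. The Day 2 and Day 14 libraries among the 12 also chose the genes. The total counts of the extreme libraries were 9983858 and 6377048, both inside the range of the 12 (3661584 to 11327483). The summed CPM of the cardiomyocyte list was 298 in library 1 of swine 5385 on Day 2, the highest of the 12 (lowest 76.4), against a median of 47201 in heart. The summed CPM of the neutrophil list was lowest in that library, 846, with 893 to 1885 in the others. The part of these properties in the difference between Day 2 and Day 14 was not tested.

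In the 25 libraries with an even profile the 18 genes had similar levels in blood and heart. Their means over 10 even blood libraries were 6.81 to 10.03 log2(CPM + 1), and over 15 even heart libraries 6.88 to 10.09. For each gene the blood mean was 0.02 to 0.14 below the heart mean. In the usable libraries the same genes were 1.33 to 1.90 higher in blood than in heart, which the rule favours, since it used 9 of the 12 usable blood libraries and the 4 of baseline heart. GRIN2B, for example, had 8.62 ± 0.30 (SD, n = 10) in even blood libraries and 8.73 ± 0.10 (SD, n = 15) in even heart libraries, against 5.25 ± 1.03 (SD, n = 12) and 3.77 ± 1.75 (SD, n = 45) in usable ones. The even libraries exceeded the usable ones by 3.11 to 3.63 in blood and by 4.64 to 5.23 in heart over the 18 genes, while the median over the 18956 genes tested in blood was 0.98 and 1.15. Of those 18956 genes, 10.1% in blood and 1.29% in heart had a difference at least as large as the lowest of the 18. The usable levels in this difference include those that chose the genes, so it is a description. Even blood libraries had 21534 to 23088 genes detected, and usable blood libraries 14223 to 20646.

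**Figure D3:**
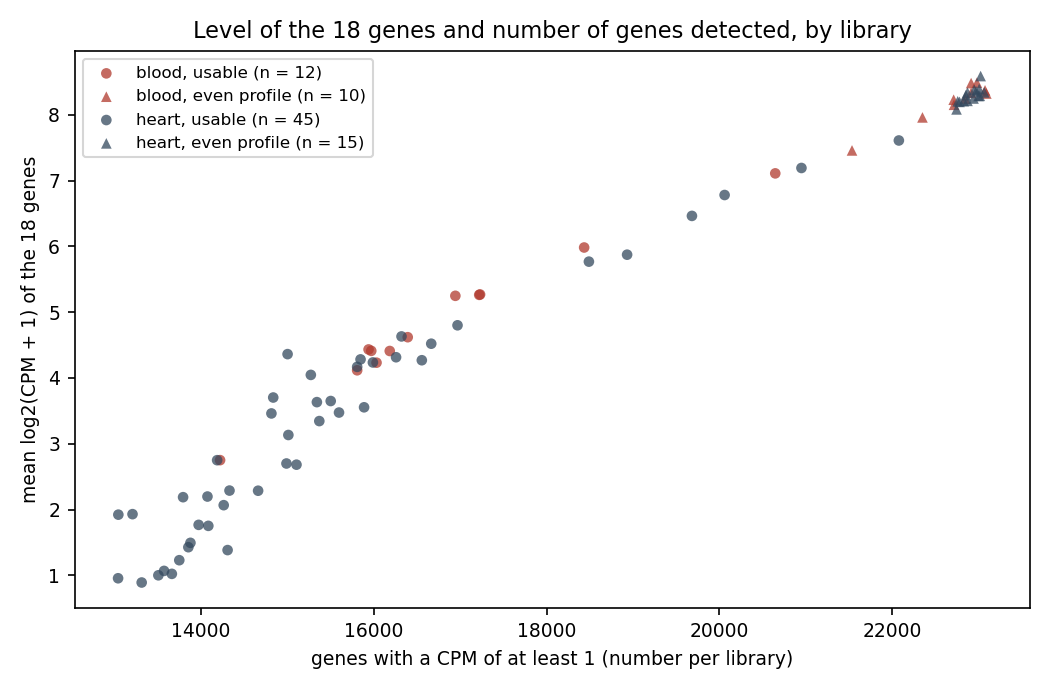
Each point is 1 of 82 libraries, with the number of genes at a CPM of at least 1 on the x axis and the mean log2(CPM + 1) of the 18 genes on the y axis, for blood and heart and for usable libraries (circles) and libraries with an even profile (triangles). Libraries with more genes detected tended to have higher levels in both tissues, though not in strict order. Levels ran from 0.89 in a baseline heart library with 13316 genes to 8.59 in an even heart library.

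In blood at 1-3 h, the 2 usable libraries had mean levels of the 18 genes of 5.27 (swine 1640) and 4.23 (swine 1644), and the 1 usable baseline library had 4.43 (swine 1644). Swine 5385, which gave the extremes on Day 2 and Day 14, had no usable library at either time. Within swine 1644, which alone had a usable library at all 4 times, the mean levels were 4.43 at baseline, 4.23 at 1-3 h, 5.26 on Day 2 and 4.12 on Day 14. The last 2 are among the libraries that chose the genes.

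Blood at 1-3 h was tested against baseline with edgeR's quasi-likelihood test, in which the lone baseline library was taken to vary like the other groups, so that the p-values rest on the spread of those groups and not on baseline itself. Of the 18 genes 0 were called at an adjusted p of 0.05 or less (background 0% of 18956 genes) and 0 had an unadjusted p under 0.05 (background 1.33%). DESeq2 called 0 of the 18 (background 0%). The median log2 fold change of the 18 was 0.36, and 0.04 over all genes tested. SORCS3 had the smallest unadjusted p among genes with a positive log2 fold change, 0.85, and CACNA1I among those with a negative one, -0.73. Without one or the other 1-3 h library the median was -0.30 or 0.81. It was also negative with the swine as a block (-0.18) and with all libraries (-0.37). Of the usable libraries, those of swine 1644 alone are in both groups.

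In the infarcted (apical) region the 18 genes varied more between libraries than between timepoints. Their mean level was 3.61 ± 1.55 after 0-1 h (SD, n = 5) and 3.53 ± 2.04 after 1-3 h (SD, n = 9). It was 2.99 ± 1.59 on Day 2 (SD, n = 4) and 3.16 ± 1.70 on Day 14 (SD, n = 7). In baseline heart, which was not aimed at a region, it was 2.27 ± 1.55 (SD, n = 4). The rule favoured a low baseline level, so a rise from baseline is not a result. The 4 Day 2 libraries had mean levels of 2.29 and 4.31 in swine 1640, 1.07 in swine 1644 and 4.28 in swine 5385. Those of Day 14 ran from 1.02 through a median of 3.13 to 5.87, which spans all of the Day 2 values.

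**Figure D4:**
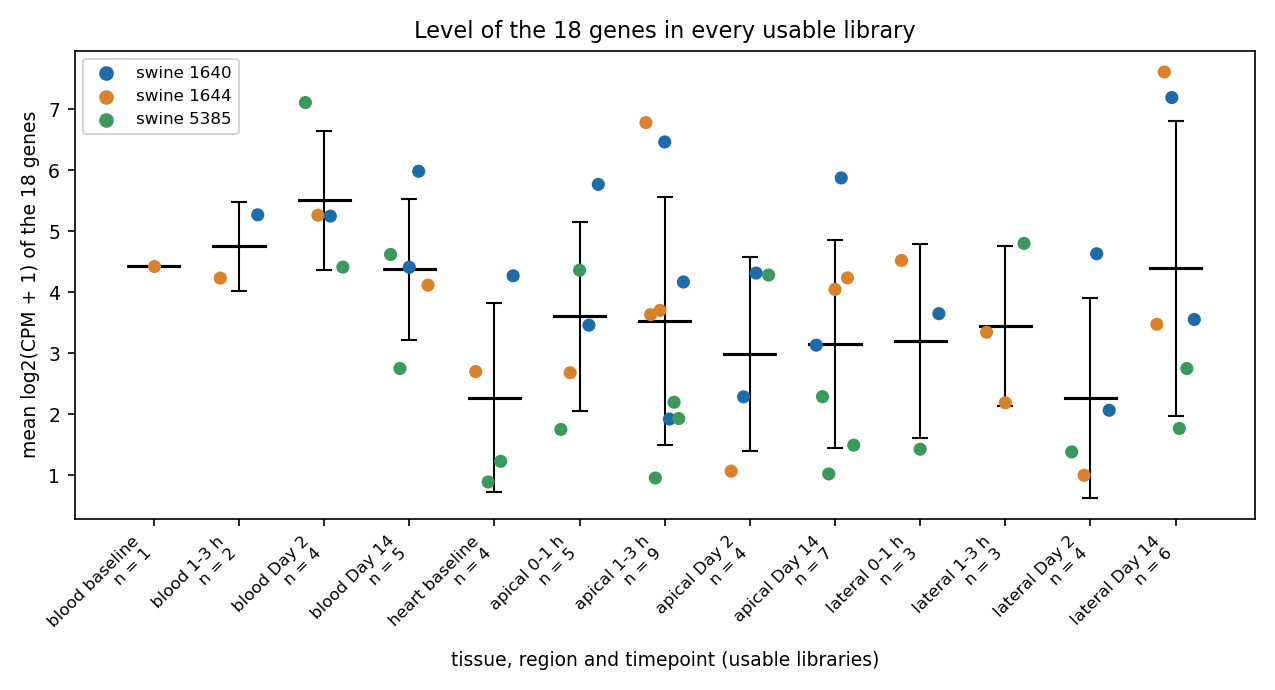
Each point is the mean log2(CPM + 1) of the 18 genes in 1 usable library, coloured by swine, for each tissue, region and timepoint, and bars give the mean and the SD of a group (no SD with 1 library). The groups overlap in heart, and the highest heart values are 2 libraries of the lateral region on Day 14 (7.61 and 7.19).

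Between Day 2 and Day 14 of the apical region, 0 of the 18 genes were called by edgeR's quasi-likelihood test, and 0.0111% of 18097 genes were. An unadjusted p under 0.05 was found in 0 of the 18 (3.47% of all genes). DESeq2 called 0 of the 18 and 0.133% of all genes. The median log2 fold change was -0.47, against -0.12 over all genes, and 16 of the 18 were negative. AGBL1 had -0.86 (standard error 1.12), GRIN2B -0.67 (1.07) and TCERG1L -0.79 (1.32). GRIN2B was at 2.48 and 4.71 in swine 1640, 1.75 in swine 1644 and 4.31 in swine 5385 on Day 2, and from 1.57 to 6.38 (median 3.62) on Day 14. With the swine as a block the median turned to 0.40, and with all libraries to 1.00. Without the collagen-rich libraries (here 1 of the 4 on Day 2 and library 5 on Day 14) it was -0.92.

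At 1-3 h the apical region was compared with the same Day 14 libraries. edgeR's quasi-likelihood test called 787 genes higher and 535 lower, together 7.31% of 18097, and 0 of the 18 genes. These counts took each biopsy as a replicate: with counts summed per swine 2 genes were higher and 1 lower. The fit with the swine as a block, which still counts each biopsy, called 800 genes higher and 531 lower. With all libraries of at least 1000000, 35 genes were lower and a larger number higher, though fewer than the 787 above. In the main fit all 18 genes had positive fold changes with a median of 0.81 (all genes 0.10). Of the 18, 0 had an unadjusted p under 0.05 (20.7% of all genes). CACNA1I had 1.12 (standard error 0.93) and PTPRN2 0.92 (standard error 0.81), with adjusted p = 0.579 and 0.612 from edgeR. CACNA1I ran from 0.35 through a median of 2.67 to 5.43 at 1-3 h and from 0.29 through 1.55 to 4.46 on Day 14. Of 199 tested entries of the 14 lists, 19 rose and 2 fell in this comparison. At 0-1 h against Day 14, 0 of the 18 genes and 0% of all genes were called, and 0 of the 18 had an unadjusted p under 0.05 (4.01% of all genes). The median was 0.26 (all genes -0.01), with FSTL4 highest at 0.82 (standard error 1.05) and CACNA1I lowest at -0.18 (standard error 1.07). With single libraries left out in turn this median ran from -0.46 to 1.08. DESeq2 called 0 of the 18 genes at both times, with 12.2% of all genes at 1-3 h and 0.0442% at 0-1 h.

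In the non-infarcted (lateral) region the 18 genes were lower in mean on Day 2 than on Day 14, in the direction opposite to that of blood. The mean level was 2.27 ± 1.63 on Day 2 (SD, n = 4) and 4.39 ± 2.42 on Day 14 (SD, n = 6). Day 2 libraries had 4.63 and 2.07 in swine 1640, 1.00 in swine 1644 and 1.38 in swine 5385. Day 14 libraries had 7.19 and 3.55 in swine 1640, 3.47 and 7.61 in swine 1644, and 1.77 and 2.75 in swine 5385. The libraries at 7.61 and 7.19 had 22076 and 20949 genes detected, the most of the 45 heart libraries, and the other 4 of the group had 13975 to 15889. By animal, Day 2 was below Day 14 in all 3, with means of 3.35 and 5.37 in swine 1640, 1.00 and 5.54 in swine 1644 and 1.38 and 2.26 in swine 5385. Without those libraries the Day 14 value of swine 1644 was 3.47, still above Day 2. That of swine 1640 was 3.55, above the Day 2 mean of 3.35 but between its Day 2 libraries at 4.63 and 2.07.

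All 18 genes had negative fold changes between Day 2 and Day 14 of the lateral region, with a median of -2.41 (from -3.14 to -2.01) against -0.06 over all genes. By edgeR's quasi-likelihood test 0 of the 18 and 0% of 18097 genes were called. An unadjusted p under 0.05 was found in 4 of the 18, and in 6.84% of all genes. DESeq2 gave an unadjusted p under 0.05 for 18 of the 18 (15.8% of all genes) and called 0 (0% of all genes), with a smallest adjusted p of 0.253. With the swine as a block the median was -2.68 and 15 of the 18 had an unadjusted p under 0.05 (10.7% of all genes), and with counts summed per swine it was -3.03 and 14 had (13.6% of all genes), with 0 called in both. The 18 genes tended to be high or low in the same libraries, so these counts are not 18 independent results. PTPRN2 had -2.40 (standard error 1.12, adjusted p = 0.587 from edgeR) and TCERG1L -3.14. PTPRN2 was at 5.58 and 3.89 in swine 1640, 1.94 in swine 1644 and 2.92 in swine 5385 on Day 2, and from 2.87 through a median of 4.52 to 8.62 on Day 14. Without libraries 2 and 3 of Day 14, an alternative chosen after the values were seen, the median became 0.19.

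The early lateral groups were compared with the same Day 14 libraries, though swine 1640 had no usable library at 1-3 h. At 1-3 h the median of the 18 genes was -1.76 (all genes -0.20) and at 0-1 h -1.88 (all genes -0.16). With the swine as a block the former was -0.42. edgeR's quasi-likelihood test called 0 of the 18 at either time, with 0.348% and 0% of all genes called. The number with an unadjusted p under 0.05 was also 0 at both times (8.84% and 3.34% of all genes), and DESeq2 gave 4 at 1-3 h (13% of all genes) and 0 at 0-1 h, with none of the 18 called (0.785% and 0.0718% of all genes). PTPRN2 had the smallest p at 1-3 h, with -2.36 (standard error 1.26), and GSG1L at 0-1 h, with -2.27 (standard error 1.44). Without the same 2 Day 14 libraries the medians were 0.70 at 1-3 h and 0.70 at 0-1 h.

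The regions were also compared with each other. On Day 2 the apical minus lateral median of the 18 genes was 0.43 (all genes -0.01) and at 1-3 h 0.92 (all genes 0.07). edgeR's quasi-likelihood test called 0 of the 18 in both, with 0% and 0.0663% of all genes called, and 0 had an unadjusted p under 0.05 (3.41% and 3.45% of all genes). DESeq2 called 0 of the 18 in both, with 0.0276% and 0.0995% of all genes. With the swine as a block the median was 1.58 on Day 2 and turned to -0.43 at 1-3 h, where swine 1640 had no usable lateral library. Without the collagen-rich libraries the median on Day 2 turned to -0.17. At 1-3 h PTPRN2 had 1.55 (standard error 1.16) and CACNA1I 1.67 (standard error 1.34). The Day 2 minus Day 14 difference was higher in the apical than in the lateral region by a median of 2.07 (from 1.21 to 2.67). In the test of that difference 0 of the 18 genes were called, as were 0% of all genes, 0 had an unadjusted p under 0.05 (2.71% of all genes), and the smallest adjusted p was 0.876 (edgeR's quasi-likelihood test).

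**Figure D5:**
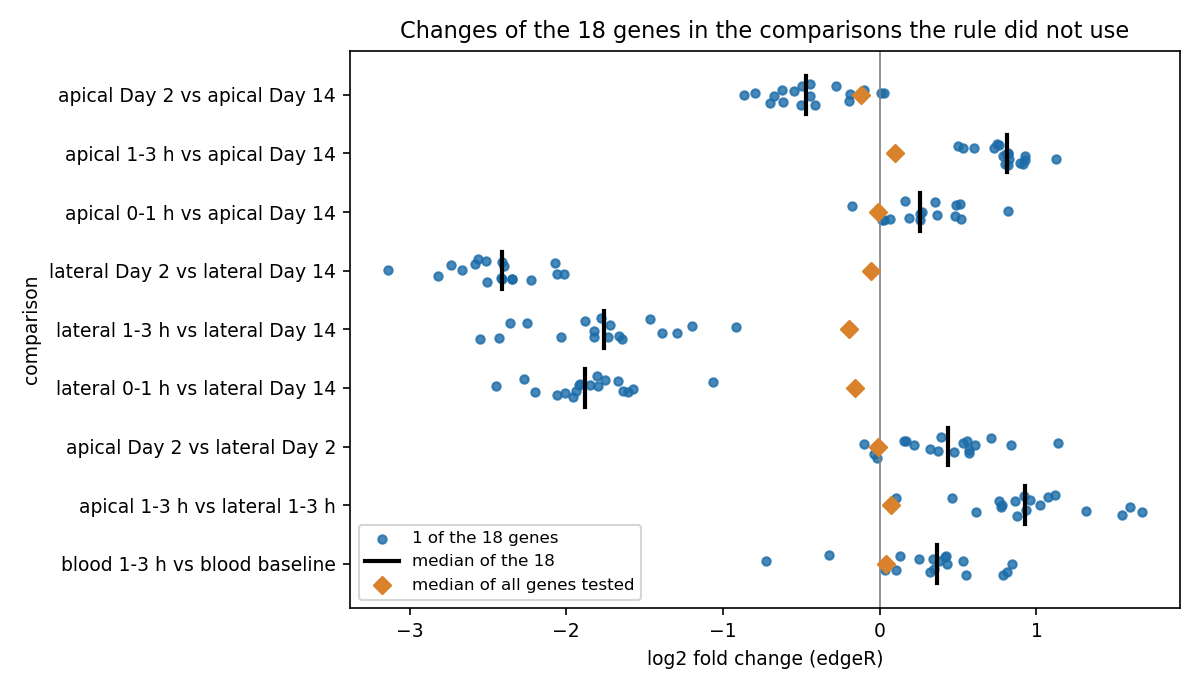
Points are the log2 fold changes (edgeR) of the 18 genes in the 9 comparisons that the rule did not use, black lines their median and diamonds the median of all genes tested. The medians run from -2.41 in the lateral region between Day 2 and Day 14 to 0.92 between the regions at 1-3 h, and none of the 18 genes passed the test in any of them.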

How the data were processed

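RNA was extracted from micro-EMB and whole blood with the RNAdvance Tissue kit in reduced volumes, and libraries were made with a SMARTer Pico stranded total RNA kit. The authors mapped the reads to Sscrofa11.1 with STAR, counted them per Ensembl gene with featureCounts and deposited raw counts of all 85 libraries. The column names mark counting without regard to strand, so genes that overlap on opposite strands cannot be told apart. Symbols were given for 15029 of the 31907 genes.

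The members and the lists were chosen with earlier results of these data known. Genes were named by rule: the 20 members with the largest difference (here all 18, with at most 2 identifiers without a symbol), the genes nearest to its edge, and in each comparison up to 3 members per direction with the smallest p. Groups came from the labels, and library numbers within a group only name a library. Extraction batches are not given in the sources used here. No 2 libraries were identical.

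Usable heart and blood libraries were fitted separately with edgeR 4.0.16 in R 4.3.3 (TMM, quasi-likelihood test, group as the only term), for genes that reached a CPM of 1 in 20% of libraries or more, and p-values were adjusted over all genes tested by the Benjamini-Hochberg method. The edgeR fit was also run on simulated counts. Their libraries were independent, without correlation within an animal, so that run cannot speak to such correlation. The swine number was taken from the labels to mark the same animal. Deviations of libraries from their group means had a mean correlation of 0.106 within and -0.041 between animals in heart, and 0.074 and -0.033 in blood. Correlations this small cannot show on their own which libraries share an animal. DESeq2 1.42.0 and other scalings, filters and library sets were alternatives. PCR duplicates were not marked, so that counts of a gene are not independent molecules.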

Additional observations from a re-analysis of the deposited data

Results flagged for a closer look

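In the 9 groups of 4 to 10 libraries, 19 sets of values each (the mean level and each of the 18 genes) were examined for 1 library that stands apart from the rest by Dixon's criterion. Chance flags about 1 in 20, which is 8.55 sets, and 5 were past the limit, which is a gap of 0.829 of the group's range for 4 libraries. In blood on Day 2, the gap of library 1 of swine 5385 to the next library was 0.846 of the range for the gene shown as unnamed 3 in the plot of blood libraries and 0.833 for ENSSSCG00000043890, values on which the rule selected. In the lateral region on Day 2, library 5 of swine 1640 stood apart, with 0.858 for unnamed 3, 0.850 for CACNA1I and 0.872 for unnamed 9.

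The libraries with an even profile enter the comparisons only in the alternative with all libraries of at least 1000000. The median of their mean level of the 18 genes was 8.29 log2(CPM + 1) over 25 libraries (from 7.46 to 8.59), above the median of 3.65 in the 57 usable libraries (from 0.89 to 7.61).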

How the results depend on the processing

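The number of genes that met the rule was 27 with a pseudocount of 0.5 (all 18 among them), 3 with means over swine (1 of the 18), 2 with all libraries of at least 1000000 (1 of the 18), 22 without the collagen-rich baseline heart library (all 18; added after the values were seen), 0 with TMM-scaled totals, and 2 (0 of the 18) without library 1 of Day 2 and library 2 of Day 14 of swine 5385, an alternative chosen after the values were seen. Leaving out each blood library in turn gave 0 to 100, the most that the rule takes. In the 8 heart comparisons and the early blood comparison, with its lone baseline library, 0 of the 18 genes were called in the main fit and in every alternative run: RLE scaling, DESeq2, no filter, the swine as a replicate block (0 in each comparison), all libraries of at least 1000000, each library left out and, in heart, counts summed per swine and 6 collagen-rich libraries left out. The sign of the median was less stable: it turned in at least 1 alternative in every comparison but the apical region at 1-3 h against Day 14 (0.12 to 1.64). For the lateral region between Day 2 and Day 14 it ran from -4.57 to 0.44, with 0.44 when all libraries were used. The cause was not tested. With 1 usable baseline and 2 usable 1-3 h blood libraries, the early blood comparison has little precision.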
